A study of Mus musculus with 18 samples.

Results

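The liver of mice lacking the transcription factor NRF2 was compared 36 weeks and 2 days after a dose of diethylnitrosamine (DEN), a liver carcinogen. The comparison was defined by the sample labels alone and used 6 of the 18 RNA-seq libraries of the series. The 3 libraries titled 36W KO came from NRF2 knockout liver 36 weeks after DEN, and the 3 titled 2D KO from NRF2 knockout liver 2 days after DEN. Both groups carried the NRF2 knockout on a mixed B6;129P2 background and both had received DEN, and no undosed liver was used here, so that time after DEN and the age of the animal cannot be told apart. Knockout libraries at 4 weeks after DEN (4W KO) and wild-type libraries at 36 weeks and 2 days after DEN (36W WT and 2D WT, 3 each) were used to place the values. The part that strain background may have in differences between KO and WT was not tested. The labels call the 2-day material liver tumour and the later material liver tissue, and the extraction text speaks of tumours for all of it, so the share of tumour in each library is unknown. They give neither the knockout allele, nor the sex or age of the animals, nor whether each library came from its own animal. The p-values below therefore measure the spread between these libraries.

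NRF2, encoded by Nfe2l2, is held in the cytoplasm and degraded through KEAP1, and when electrophiles or oxidants modify KEAP1 it enters the nucleus and switches on genes of glutathione synthesis, conjugation, NADPH supply and drug export. Hepatocytes activate DEN with cytochrome P450 enzymes, chiefly CYP2E1, to a species that alkylates DNA, and surviving cells can later grow into tumours. In mice, DEN is given to young animals, in which the liver is still growing and has not yet acquired the adult, sex-specific pattern of gene expression that pulses of growth hormone impose after puberty.

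The 6 libraries held 15.3 to 19.02 M gene counts (M, 1e+06; up to 24.2 M over all 18), and 3 counts, the limit that a count of 0 allows, corresponded to 0.142 to 0.207 CPM (counts per 1e+06 of the TMM-scaled library total) in them. Of 35275 genes in the table, 14877 were tested in 1 edgeR quasi-likelihood fit of all 18 libraries, and a gene is said below to have risen or fallen at 36W where its Benjamini-Hochberg adjusted p was under 0.05. In NRF2 knockout liver 5009 genes (33.7% of those tested) differed between 36W and 2D, 2653 higher (17.8%) and 2356 lower (15.8%) at 36W, and the median log2 fold change over all genes tested was 0.01. At least 2-fold changes were found in 1291 genes that rose and 1114 that fell. The 36W and 2D KO libraries did not overlap for 7713 of the genes tested and for 4914 of the 5009 called. Lack of overlap, given below for single genes, is therefore common among all genes. It was also a condition for the 15 largest changes in each direction. With scaling to library size alone the median of all genes moved to -0.18 and the calls split into 1736 higher and 3401 lower, so directions of small changes are relative to the centring. In wild-type liver the same contrast gave 3073 higher (20.7%) and 2546 lower (17.1%) genes, and with library size alone 1451 and 5612. The change in KO minus the change in WT was positive and called for 91 genes (0.612%) and negative and called for 362 (2.43%). Because the tissue was sequenced in bulk, fewer cells of a type and less RNA per cell cannot be told apart. Title codes that differ between 2D and the later libraries cannot be told apart from time either.

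The targeted gene was examined first. Nfe2l2 (chr2:75675513-75704641, mm10, minus strand) was counted at 42.9, 37.8 and 42.99 CPM in the 36W KO libraries, against 43.3, 66.3 and 67.8 CPM in the 2D KO libraries. Its transcript was thus present in all 6 libraries, and the highest 36W KO library lay just below the lowest 2D KO library. In wild-type liver it stood at 110.4, 127 and 105 CPM at 36W and 73.2, 70.2 and 76.2 CPM at 2D. Nfe2l2 fell in the knockout (log2 fold change -0.52, SE 0.14, adjusted p = 0.0108), but the call was lost without 2D KO replicate 3 (adjusted p = 0.0563) and with a replicate block in the 6 KO libraries alone. Nqo1, a quinone reductase and a standard NRF2 target, was low in the knockout at both times, at 6.41, 0.753 and 2.08 CPM in the 36W KO libraries, against 2.27, 1.56 and 1.37 CPM in the 2D KO libraries, with overlapping groups (adjusted p = 0.394), and stood at 22.6, 32.4 and 103 CPM in the 36W WT libraries and 29.1, 26.3 and 14.2 CPM in the 2D WT libraries. The labels do not say which part of the gene was removed, so the Nfe2l2 count does not check the knockout. Every Nqo1 value of the KO libraries at either time was below every WT value.

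The largest rise belonged to Serpina12 (chr12:104028769-104044443, minus strand), which encodes the secreted serpin vaspin. It was counted at 573, 164 and 437 CPM in the 36W KO libraries, against 0, 0.0556 and 0.0473 CPM in the 2D KO libraries, that is, 18922 counts against 2, a ratio of 11255 (3115 to 92945) with its exact 95% counting interval. All 3 of the 36W KO libraries were high and the 2D KO libraries at or next to 0. The 4W KO libraries, at 4.49, 3.905 and 2.01 CPM, lay between them. Igha, the constant region of the IgA heavy chain and a product of plasma cells, was at 90.7, 113 and 119.6 CPM in the 36W KO libraries, against 0, 0.167 and 0.0473 CPM in the 2D KO libraries (ratio 1605 (626 to 5892)). Cdkn2b (chr4:89306289-89311032, minus strand), which encodes the cyclin-dependent kinase inhibitor p15, was at 42.8, 42.04 and 99.7 CPM in the 36W KO libraries, against 0, 0 and 0.284 CPM in the 2D KO libraries (log2 fold change 9.16, SE 0.98, adjusted p = 5.45e-06). Its neighbour Cdkn2a (chr4:89274471-89294653), which encodes p16 and p19ARF, was at 6.34, 14.9 and 41.4 CPM in the 36W KO libraries, against 0.202, 0 and 0 CPM in the 2D KO libraries (log2 fold change 8.13, SE 1.13, adjusted p = 6.15e-05). For both inhibitors 36W KO replicate 3 was the highest library.

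There were 15 genes with no count in any 2D KO library and at least 10 counts in each 36W KO library. Among the 15 largest rises, the fold can for such genes only be bounded, taking 3 counts over the 2D KO group as the limit. Vmn2r3, of the vomeronasal receptor family, was at 16.5, 36.02 and 20.6 CPM at 36W and at least 487-fold higher. Erich4 was at 27.3, 21.8 and 23.4 CPM (at least 472-fold), Mpped1 at 7.72, 8.45 and 14.9 CPM (at least 207-fold) and Tmem45b at 4.41, 2.78 and 7.95 CPM (at least 100.3-fold). All 3 of the 36W KO libraries counted these 4 genes, and in the 4W KO libraries they had no count except for 1 library of Vmn2r3, at 0.0542 CPM. Wfdc15b (36.7, 113 and 32.5 CPM at 36W, 0.101, 0.111 and 0.0473 CPM at 2D) and Csn3, which encodes the milk protein kappa-casein (49.2, 71.4 and 7.78 CPM at 36W, 0, 0.167 and 0.0473 CPM at 2D), rose by 9.37 and 9.16 on the log2 scale. Csn3 was lowest in 36W KO replicate 3.

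In the other direction, 17 genes had no count in any 36W KO library and at least 10 in each 2D KO library. Among genes with a mean log2 CPM of at least 1, the largest fall was that of Sult2a1, a hydroxysteroid sulfotransferase, at 0, 0.0579 and 0.338 CPM in the 36W KO libraries, against 154, 115 and 65.6 CPM in the 2D KO libraries (log2 fold change -9.56, SE 0.84, adjusted p = 8.61e-07). Igf2bp3, an oncofetal RNA-binding protein, was at 0.207, 0.0579 and 0.0563 CPM in the 36W KO libraries, against 18.1, 22.2 and 16.4 CPM in the 2D KO libraries. That every 2D KO library was above every 36W KO library in both genes was required by the rule that named them. Further large falls were those of Slc39a5, a zinc importer (-5.94, adjusted p = 2.2e-05), Gucy2c, the guanylin receptor (-5.65, adjusted p = 0.000132), Cd209f, of the DC-SIGN family of lectins (-5.79, adjusted p = 0.000131), Itm2a (-5.47, adjusted p = 1.92e-05), the lipase-related Pnliprp1 (-5.22, adjusted p = 0.000883) and Etnppl, which breaks down phosphoethanolamine (-5.18, adjusted p = 0.00046). Sult2a5, Cyp3a16 and Cyp3a41a were also among the 15 largest falls. Reads of the Sult2a, Cyp3a, Cyp4a12, Mup, Gstm, Serpina1 and vomeronasal families may be split between near-identical copies by the counting, so values of single members are uncertain. Whether the counting used strand is not given in the sources used here, which leaves overlapping pairs such as Igf2 and Igf2os unresolved.

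Imprinted growth genes, which are expressed from one parental allele and are high in the growing liver, were low at 36W. Of 17 tested, 11 fell and 1 rose, with a median log2 fold change of -2.78 against 0.01 over all genes. Igf2 (chr7:142650766-142666816, minus strand), a fetal growth factor, was at 3.24, 5.67 and 1.13 CPM in the 36W KO libraries, against 1637, 1743 and 2408 CPM in the 2D KO libraries (log2 fold change -9.17, SE 0.81, adjusted p = 9.18e-07). The noncoding RNA H19, its neighbour, was at 260.1, 108 and 235 CPM in the 36W KO libraries, against 6296, 6651 and 6816 CPM in the 2D KO libraries (log2 fold change -5.03, adjusted p = 0.000352). All 2D KO libraries of both genes lay far above all 36W KO libraries. The 4W KO libraries of Igf2, at 0.436, 1.57 and 4.88 CPM, overlapped the 36W KO libraries and lay below all 2D KO libraries. Cdkn1c, the cell cycle inhibitor p57, fell by 2.78 (adjusted p = 7.54e-07), Grb10, an adaptor that restrains insulin and IGF1 receptors, by 2.94 (adjusted p = 8.65e-07), Plagl1, a zinc finger regulator of the imprinted network, by 2.78 (adjusted p = 2.66e-05), and Mest, a hydrolase, by 2.92 (adjusted p = 4.46e-05) on the log2 scale. Peg3, a zinc finger protein, was at 20.7, 21.4 and 17.5 CPM in the 36W KO libraries, against 204, 176 and 177 CPM in the 2D KO libraries and fell by 3.22 (adjusted p = 3.07e-06). Its fall was larger in wild-type liver, where it was at 4.699, 3.66 and 4.305 CPM at 36W and 344, 432 and 148 CPM at 2D (difference 2.96, adjusted p = 0.00566). Meg3, a maternally expressed noncoding RNA, was the member that rose, at 171, 58.2 and 46.5 CPM in the 36W KO libraries, against 22.4, 18.7 and 36.8 CPM in the 2D KO libraries, and its call (adjusted p = 0.0477) was lost under 5 alternatives.

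Fetal and oncofetal genes, which are active in the fetal liver and often again in liver tumours, went both ways. Of 17 tested, 8 rose and 5 fell (median 0.64), against 17.8% and 15.8% of all genes. Afp, the fetal albumin homologue, was at 114, 258 and 243 CPM in the 36W KO libraries, against 1131, 1879 and 4631 CPM in the 2D KO libraries. All of the 36W KO libraries were below all of the 2D KO libraries, of which replicate 3 was the highest. Tspan8, a tetraspanin, was at 366, 174 and 216 CPM in the 36W KO libraries, against 0.303, 1.33 and 0.899 CPM in the 2D KO libraries, and Gpc3, a membrane heparan sulfate proteoglycan used as a liver cancer marker, at 304, 561 and 406 CPM in the 36W KO libraries, against 55.5, 56.1 and 86.3 CPM in the 2D KO libraries. Neither gene overlapped between the groups. Ly6d, Tff3, Golm1, Spink3, Scd2 and Akr1c18 rose as well, by 3.6, 4.89, 2.78, 2.52, 3.93 and 3.03. Under DESeq2 3 fell. Igf2bp2, Lpl and Cyp3a16 fell with Afp and Igf2bp3, by 3.1, 1.46 and 5.75.

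Of 40 tested genes of the cell cycle and DNA replication, 21 fell and none rose (median -1.31). Mki67, the proliferation marker Ki-67, was at 45.7, 22.8 and 21.8 CPM in the 36W KO libraries, against 74.4, 77.3 and 93.2 CPM in the 2D KO libraries, which missed the threshold (adjusted p = 0.0604). Its groups did not overlap, as for 7713 of the 14877 genes tested. Top2a, the replicative topoisomerase, was at 26.7, 12.2 and 11.2 CPM in the 36W KO libraries, against 61.5, 52.7 and 78.8 CPM in the 2D KO libraries and fell by 1.95 (adjusted p = 0.0108). In both genes 36W KO replicate 1 was the highest of its group. The ribonucleotide reductase subunits Rrm1 and Rrm2 fell by 2.08 (adjusted p = 1.28e-05) and 1.97 (adjusted p = 6.56e-05), cyclin E2 (Ccne2) by 2.6 (adjusted p = 1.49e-05) and the helicase subunit Mcm7 by 1.2 (adjusted p = 1.61e-05). The count of 21 was 12 without 36W KO replicate 3, 13 without 2D KO replicate 3 or without 36W KO replicate 2, and 36 when the 6 KO libraries were fitted alone.

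Male-biased genes of the adult liver rose as a group: of 18 tested, 12 rose and none fell (median 4.86). Mup20 (chr4:62050234-62054158, minus strand), the male urinary pheromone darcin, was at 1178, 1247 and 1277 CPM in the 36W KO libraries, against 2.58, 3.28 and 2.46 CPM in the 2D KO libraries (log2 fold change 8.8, SE 1.07, adjusted p = 1.8e-05). Mup3, another major urinary protein, was at 866, 615 and 703 CPM in the 36W KO libraries, against 2.93, 1.67 and 0.993 CPM in the 2D KO libraries, and Serpina1e, an alpha-1-antitrypsin, at 7815, 4333 and 4705 CPM in the 36W KO libraries, against 142, 236 and 162 CPM in the 2D KO libraries. Every 36W KO library of these genes was far above every 2D KO library. All major urinary protein genes together took 0.191% to 0.201% of the counts at 36W and 0.000417% to 0.000620% at 2D. The 36W KO libraries were less even for other members. The arachidonic acid hydroxylase Cyp4a12a was at 30.2, 43.7 and 3.72 CPM in the 36W KO libraries, against 0.152, 0 and 0 CPM in the 2D KO libraries (1259 counts against 3, ratio 499 (170.4 to 2424)), and Elovl3, a fatty acid elongase, at 13.4, 10.02 and 2.14 CPM in the 36W KO libraries, against 0.0505, 0 and 0 CPM in the 2D KO libraries (ratio 483 (86.2 to 19124)). Cyp7b1, the oxysterol hydroxylase, was at 22.7, 27.1 and 6.59 CPM in the 36W KO libraries, against 0.101, 0.278 and 0.284 CPM in the 2D KO libraries. In all 3 genes 36W KO replicate 3 was the lowest of its group, as it was for Hsd3b5, Cyp4a12b, Mup7, Mup11 and Mup15. The last 3 had no count at 2D and were at least 324, 66.6 and 76.1-fold higher. Mup11 was at 2.69, 7.06 and 0.394 CPM at 36W, highest in replicate 2. The calls of all 3 were lost under limma-voom and without any 1 of the 2D KO libraries or 36W KO replicate 2, and those of Mup11 and Mup15 also without 36W KO replicate 1. Limma-voom in place of edgeR gave 5 male-biased genes that rose in place of 12.

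Female-biased genes showed the opposite balance, with 10 of 19 lower and 1 higher (median -2.44). Besides Sult2a1, the steroid hydroxylase Cyp3a44 was at 1.79, 2.32 and 1.35 CPM in the 36W KO libraries, against 69.3, 112 and 99.2 CPM in the 2D KO libraries, and the organic anion carrier Slco1a4 at 9.78, 9.55 and 4.28 CPM in the 36W KO libraries, against 122, 125 and 57.4 CPM in the 2D KO libraries. Both fell without overlap. The repressor Cux2, itself female-biased, fell by 3.53 (adjusted p = 0.0177), a call lost without 2D KO replicate 1 or 36W KO replicate 1 or 3, the prolactin receptor Prlr by 1.68 (adjusted p = 0.00603), the oxidase Hao2 by 2.44 (adjusted p = 0.00251) and the flavin monooxygenase Fmo2 by 1.76 (adjusted p = 0.00418). The exception was Cyp2a4, a steroid 15-alpha-hydroxylase, which was at 1975, 1192 and 2651 CPM in the 36W KO libraries, against 7.83, 17.1 and 9.74 CPM in the 2D KO libraries and rose by 7.39. Ddx3y, on the Y chromosome, was at 67.4 to 83.4 CPM in the 36W KO libraries and 70.1 to 91.1 CPM in the 2D KO libraries, and Xist had 0 counts in 5 of the 6 libraries and 2 counts in the other. Of the growth hormone and IGF1 axis, 4 of 14 genes fell and none rose, against 15.8% and 17.8% of all genes. With the 6 KO libraries fitted alone 7 fell and 2 rose, and without 36W WT replicate 1, 1 rose. Igf1 itself was at 135, 122 and 54.6 CPM in the 36W KO libraries, against 554, 444 and 391 CPM in the 2D KO libraries and fell by 2.16 (adjusted p = 0.000846). Igfbp2 fell by 1.66 (adjusted p = 0.00202), and the receptor Ghr stood at 166, 130.3 and 112 CPM at 36W and 234, 188 and 195 CPM at 2D without passing the test (adjusted p = 0.145).

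**Figure D1:**
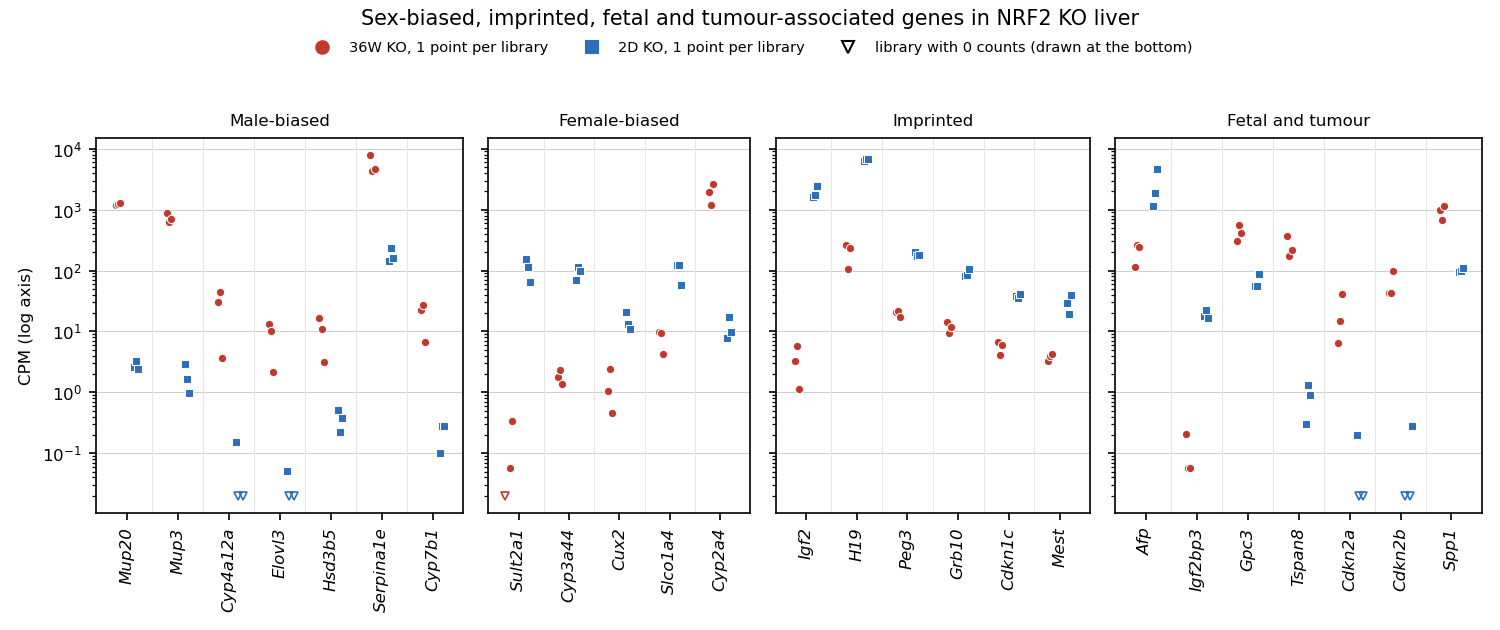
CPM on a log axis in each library of NRF2 knockout liver at 36W (left of each pair) and 2D. The genes are male-biased, female-biased, imprinted, fetal or oncofetal and tumour-associated. Each point is 1 library and a triangle marks a count of 0. Most male-biased genes are higher and most imprinted genes lower at 36W, as for Mup20 at 1178, 1247 and 1277 CPM at 36W and 2.58, 3.28 and 2.46 CPM at 2D.

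Genes of cholesterol synthesis and uptake that SREBP2 controls rose without exception. SREBP2 is released from the endoplasmic reticulum when sterols are scarce, and turns on nearly every enzyme of the pathway. All 24 rose (median log2 fold change 3.41), against 17.8% of all genes tested, and their summed level was 6538 to 7900 CPM in the 36W KO libraries and 1228 to 1369 CPM in the 2D KO libraries. The 4W KO libraries, at 3039 to 3865 CPM, lay between the 2 times. In wild-type liver all 24 rose as well, and the difference was called for none of them.

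The promoter windows of these genes are shown because the members moved together. Of the 24 genes, 16 had a RefSeq window of the GRCm38.p6 build, and all 16 held the CCAAT box, which the trimeric factor NF-Y binds beside SREBP sites, on either strand in the 250 bases before the start (100%). The share was 40.1% of the 10737 tested genes with a window, 42.6% of those that rose and 41.6% of those that fell. The sterol element TCACNCCAC, searched on both strands, was found in 1 of the 16 (6.25%), Hmgcs1, and in 1.31% of the tested genes with a window. A match describes the letters only. Stretches from the 4 members with a window and the smallest p-values and from Hmgcs1 follow, 5′ to 3′ on the gene's strand, with CCAAT (or its complement ATTGG) and the sterol element in capitals. They are at chr5:28071162-28071235 for Insig1 (plus strand), chr5:4104698-4104766 for Cyp51 (minus), chrX:72918461-72918520 for Nsdhl (plus), chr19:6067858-6067937 for Tm7sf2 (minus) and chr13:119690174-119690253 for Hmgcs1 (plus).
Insig1: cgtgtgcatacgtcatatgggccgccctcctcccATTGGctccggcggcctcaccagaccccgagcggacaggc
Cyp51: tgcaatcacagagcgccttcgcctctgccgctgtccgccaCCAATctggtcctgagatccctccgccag
Nsdhl: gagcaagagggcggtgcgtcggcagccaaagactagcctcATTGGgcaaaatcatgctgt
Tm7sf2: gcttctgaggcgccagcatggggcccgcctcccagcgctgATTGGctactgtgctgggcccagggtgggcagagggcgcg
Hmgcs1: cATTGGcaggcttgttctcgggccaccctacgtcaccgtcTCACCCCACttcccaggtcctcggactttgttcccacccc
These 5 genes differed in the size of their rise. Insig1, the sterol sensor that retains SREBP2, was at 549, 374 and 499 CPM in the 36W KO libraries, against 20.6, 15.7 and 13.8 CPM in the 2D KO libraries, and Cyp51, the lanosterol demethylase, at 409, 365 and 404 CPM in the 36W KO libraries, against 9.95, 9.95 and 10.7 CPM in the 2D KO libraries. Nsdhl, a sterol dehydrogenase, was at 116, 123 and 120 CPM in the 36W KO libraries, against 6.06, 8.45 and 5.82 CPM in the 2D KO libraries. The log2 fold changes were 4.83, 5.27 and 4.14, against 2.82 for the sterol reductase Tm7sf2 and 3.75 for Hmgcs1, the HMG-CoA synthase, the last at 1239.7, 723 and 908 CPM at 36W and 61.2, 76.5 and 75.1 CPM at 2D.

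The steps before and after these enzymes moved the same way. Fdps (chr3:89093592-89101967, minus strand), which makes farnesyl diphosphate, was at 438, 467 and 609 CPM in the 36W KO libraries, against 11.6, 11 and 10.9 CPM in the 2D KO libraries, with the smallest adjusted p of the list (log2 fold change 5.5, SE 0.21, adjusted p = 9.82e-11). The 3 libraries of a time lay close together and the times lay far apart. Sqle, the squalene epoxidase, rose by 5.39 and Srebf2, which encodes SREBP2, by 1.38 on the log2 scale. Ebp, a late sterol isomerase, rose by 0.98. Stard4, a sterol carrier, was at 202, 195 and 222 CPM at 36W and 30.3, 30.8 and 26.9 CPM at 2D.

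**Figure D2:**
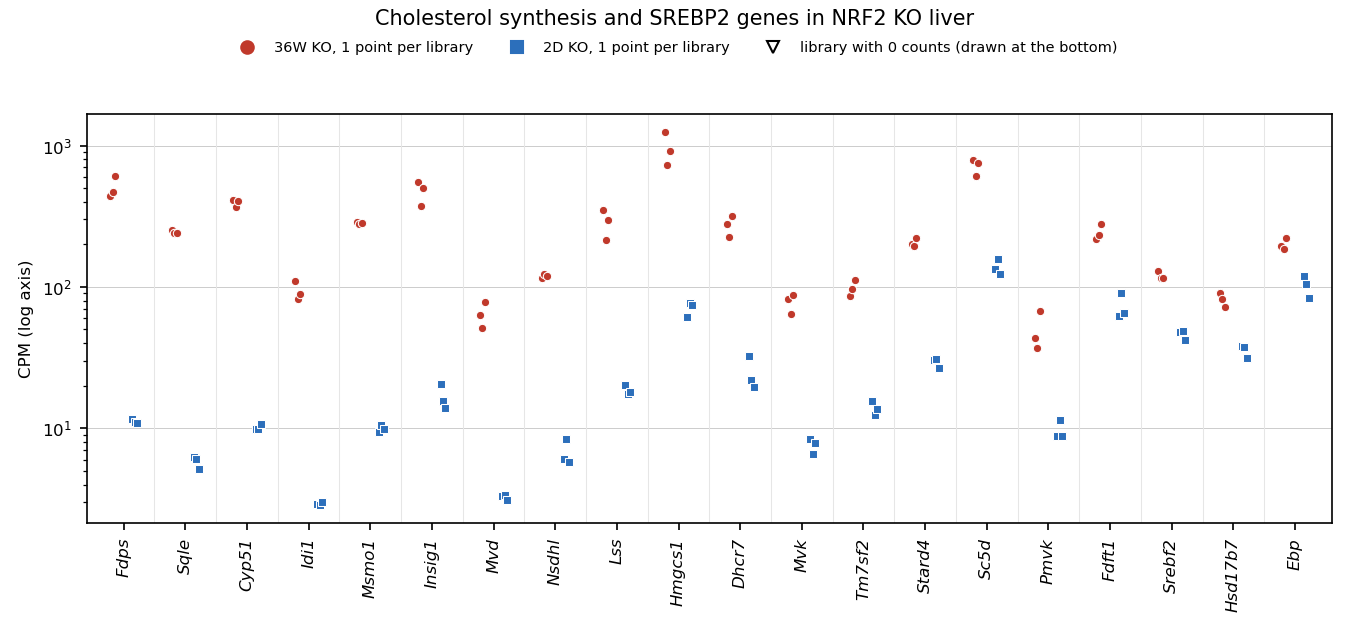
CPM on a log axis of 20 of the 24 cholesterol genes in each library of NRF2 knockout liver at 36W and 2D, ordered by fold change; each point is 1 library. For every gene shown the 36W libraries lie above the 2D libraries, from Fdps (5.5 on the log2 scale) to Ebp (0.98).

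Fatty acid synthesis genes rose with them: 14 of 20 rose and none fell (median 1.41). Scd1, the stearoyl-CoA desaturase, was at 6006, 3688 and 3905 CPM in the 36W KO libraries, against 49.7, 51.8 and 32.03 CPM in the 2D KO libraries (log2 fold change 6.67, SE 0.53, adjusted p = 3.8e-07). Fasn, the fatty acid synthase, was at 625, 339 and 487 CPM in the 36W KO libraries, against 68.1, 73.01 and 68.8 CPM in the 2D KO libraries, and Thrsp, a lipogenic coactivator, at 25.1, 34.1 and 38.03 CPM in the 36W KO libraries, against 3.08, 1.17 and 0.237 CPM in the 2D KO libraries. All 3 rose without overlap. Acss2, which makes acetyl-CoA from acetate, rose by 2.98 and the elongase Elovl6 by 2.5. Srebf1, which encodes the lipogenic factor SREBP1, stood at 267, 208 and 219 CPM at 36W and 335, 365 and 336 CPM at 2D and did not pass the test (adjusted p = 0.223).

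Fatty acid oxidation genes and other targets of PPAR alpha, the lipid-sensing receptor of the fasted liver, fell: of 30 tested, 19 fell and 3 rose (median -1.07). Hadh, a mitochondrial hydroxyacyl-CoA dehydrogenase, was at 138, 147 and 137 CPM in the 36W KO libraries, against 451, 493 and 489 CPM in the 2D KO libraries (log2 fold change -1.76, SE 0.16, adjusted p = 1.24e-06). Acadvl, the very long chain acyl-CoA dehydrogenase, was at 72.8, 68.97 and 52.5 CPM in the 36W KO libraries, against 234, 248 and 214 CPM in the 2D KO libraries, and Cpt2, which completes carnitine-dependent import, at 40.1, 58.9 and 41.6 CPM in the 36W KO libraries, against 165, 184 and 164 CPM in the 2D KO libraries. For these genes all 36W KO libraries lay below all 2D KO libraries. Ppara was itself at 52.8, 64.2 and 41.6 CPM at 36W and 119, 119.6 and 99.1 CPM at 2D and fell by 1.09 (adjusted p = 0.00339). Pdk4, which shuts pyruvate dehydrogenase, fell by 2.73 (adjusted p = 0.000272). The members that rose were Fabp1, a fatty acid binding protein, Cd36, a fatty acid translocase, and Vnn1, a pantetheinase, by 1.6, 1.01 and 0.91.

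The same list moved differently in wild-type liver, where 9 rose and 7 fell (median -0.08), and the difference KO minus WT was called for 11 of the 30, all negative, against 2.43% of all genes. The change of Hadh was -1.76 in KO and -0.297 in WT (difference -1.46, adjusted p = 0.00566), that of the trifunctional protein subunits -1.36 in KO and -0.37 in WT (difference -0.997, adjusted p = 0.028) for Hadha and -1.41 in KO and -0.201 in WT (difference -1.21, adjusted p = 0.0243) for Hadhb. Ppara changed by -1.09 in KO and 0.65 in WT (difference -1.75, adjusted p = 0.0178). In 36W WT libraries Ppara stood at 125, 109 and 98.8 CPM and in 2D WT libraries at 78.4, 82.2 and 50.7 CPM. Acadm, the medium chain dehydrogenase, changed by -0.92 in KO and -0.08 in WT (difference -0.84, adjusted p = 0.02). Of the 11, Hadh alone was called in the difference under all 21 alternatives, and Ppara and Hadh were those called when the 12 libraries of the 4 groups were fitted alone. With scaling to library size the median difference over all genes was 0.23, against 0.03 in the fit used here.

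**Figure D3:**
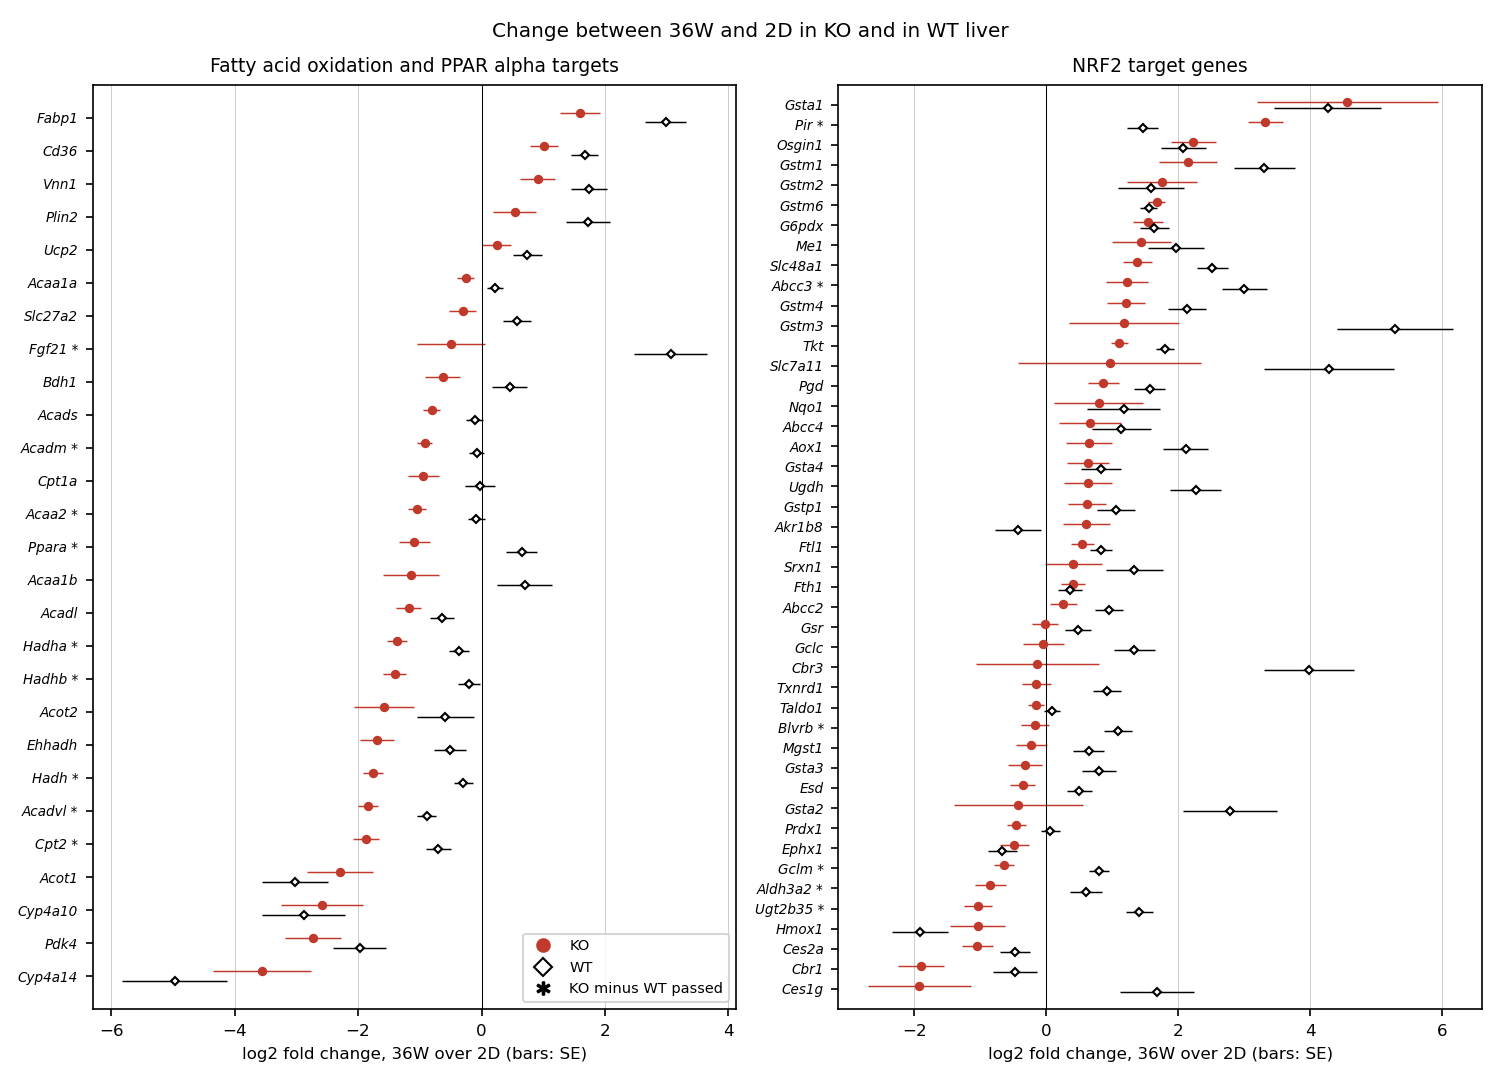
Log2 fold change at 36W relative to 2D with its SE for fatty acid oxidation genes and NRF2 target genes, in KO and in WT liver (3 libraries per group and time); an asterisk marks a called difference between KO and WT, and 3 oxidation genes are not drawn, nor is Gpx2, which had no count in any of the 6 KO libraries. Most oxidation genes lie below 0 in KO and nearer 0 in WT, as for Hadh at -1.76 in KO and -0.297 in WT.

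Glucose output genes fell too. Of 26 genes of gluconeogenesis and glycolysis 12 fell and 1 rose, against 15.8% and 17.8% of all genes. Without 36W KO replicate 2 or 3 or 36W WT replicate 1, 2 rose. G6pc, the glucose-6-phosphatase, was at 26.8, 31.6 and 5.13 CPM in the 36W KO libraries, against 659, 525 and 622 CPM in the 2D KO libraries, and Pck1, the PEP carboxykinase, at 269.6, 779.7 and 186 CPM in the 36W KO libraries, against 2035, 1541 and 1965 CPM in the 2D KO libraries. Both fell without overlap, and 36W KO replicate 3 was the lowest library. Fbp1, fructose-bisphosphatase, fell by 1.97 (adjusted p = 2.14e-06), and the coactivator Ppargc1a by 2.06 (adjusted p = 0.000838). Pcx, pyruvate carboxylase, changed by -0.87 in KO and -0.07 in WT (difference -0.804, adjusted p = 0.048).

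Of 21 tested genes of bile acid synthesis and transport, 11 fell and 3 rose (median -0.67), against 15.8% and 17.8% of all genes. Cyp7a1, the rate-limiting enzyme of bile acid synthesis, was at 6.96, 15.8 and 1.296 CPM in the 36W KO libraries, against 197, 139.8 and 132 CPM in the 2D KO libraries, and Cyp8b1, which makes cholic acid, at 13.2, 24.1 and 2.87 CPM in the 36W KO libraries, against 216, 179 and 141 CPM in the 2D KO libraries. Both were lowest in 36W KO replicate 3, and the groups did not overlap. The uptake carriers Slc10a1 (NTCP) and Slco1b2 fell by 1.79 (adjusted p = 0.00414) and 2.21 (adjusted p = 0.00324). The conjugating enzyme Baat, the FGF receptor Fgfr4 and Cyp7b1 rose, by 1.37, 1.17 and 6.37. The steroid reductase Akr1d1 changed by -2.66 in KO and -0.98 in WT (difference -1.68, adjusted p = 0.0277).

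Genes of both zones of the liver lobule fell more often than all genes tested did. Of 18 pericentral genes, normally expressed around the central vein under Wnt control, 11 fell and 3 rose (median -1.11). Of 18 periportal genes 7 fell and 3 rose (median -0.54). Of all genes 15.8% fell and 17.8% rose, so that the shares that rose are near that of all genes. Axin2, a direct Wnt target, was at 4.27, 4.75 and 0.507 CPM in the 36W KO libraries, against 16.2, 18.5 and 17.6 CPM in the 2D KO libraries, and the Wnt receptor component Lgr5 at 1.31, 2.55 and 0.507 CPM in the 36W KO libraries, against 5.56, 9.17 and 9.79 CPM in the 2D KO libraries. Glul, glutamine synthetase, was at 135, 277 and 54.3 CPM in the 36W KO libraries, against 165, 169 and 169.7 CPM in the 2D KO libraries, with overlapping groups (adjusted p = 0.869). Cyp2e1, the enzyme that activates DEN, was at 874, 1241 and 187 CPM in the 36W KO libraries, against 2378, 2088 and 1913 CPM in the 2D KO libraries, and its call (adjusted p = 0.0261) was lost in 3 alternatives. The endothelial Wnt signals Rspo3 and Wnt2 fell by 2.33 (adjusted p = 5.93e-05) and 1.77 (adjusted p = 0.00116). Among periportal genes the urea cycle enzymes Cps1, Ass1 and Asl fell, by 2.21 (adjusted p = 8.95e-05), 1.53 (adjusted p = 0.00222) and 2.17 (adjusted p = 0.000164). Cdh1, E-cadherin, and Hsd17b13 rose by 0.77 and 0.88.

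Core hepatocyte genes, mostly secreted plasma proteins and their regulators, rose more often than they fell: 11 of 24 rose and 3 fell. Alb, albumin, took 13.8% to 15.3% of the counts at 36W and 8.58% to 9.36% at 2D, and per kilobase of gene length stood at 75230 ± 5567 CPM per kb at 36W and 40700 ± 3050 CPM per kb at 2D (SD, n = 3 each). Apoa1 and Apoc3, apolipoproteins of HDL and triglyceride-rich particles, rose by 1.74 (adjusted p = 2.44e-05) and 2.51 (adjusted p = 9.29e-06). Hpd, of tyrosine breakdown, fell by 1.97 (adjusted p = 0.000332). Hepatocyte markers were thus present in all 6 libraries. Of 25 drug-metabolising cytochromes 5 rose (3 without 2D KO replicate 3) and 8 fell, against 17.8% and 15.8% of all genes. The share that rose is near that of all genes. Cyp2b10, the classical target of the receptor CAR, was at 0, 0.174 and 0 CPM in the 36W KO libraries, against 8.49, 4.17 and 0.804 CPM in the 2D KO libraries (3 counts against 260, ratio 0.0137 (0.00281 to 0.0406)). The coumarin hydroxylase Cyp2a5 rose by 2.8 (adjusted p = 0.000771).

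NRF2 target genes, which in these livers lack their usual activator, changed in both directions: of 46 tested, 14 rose and 6 fell (median 0.48), against 17.8% and 15.8% of all genes, so that the share that fell is near that of all genes. The lower count was 10 with scaling to library size. In wild-type liver 33 rose and 2 fell (median 1.26). Osgin1, an oxidative stress-induced growth inhibitor, was at 572, 379 and 476 CPM in the 36W KO libraries, against 65.1, 146 and 93 CPM in the 2D KO libraries, and Pir, the iron-binding protein pirin, at 27.3, 29.1 and 36.4 CPM in the 36W KO libraries, against 2.58, 3.89 and 2.84 CPM in the 2D KO libraries. Both rose without overlap, by 2.23 (adjusted p = 0.000133) and 3.32 (adjusted p = 3.76e-07). The pentose phosphate enzymes G6pdx, Tkt and Pgd rose by 1.54, 1.11 and 0.87, and the glutathione transferases Gstm6, Gstm1 and Gsta1 by 1.67, 2.15 and 4.56. Gclm, the modifier subunit of the enzyme that starts glutathione synthesis, was at 131, 105 and 99.7 CPM at 36W KO and 143, 197 and 181 CPM at 2D KO. In wild-type liver it was at 270.3, 198 and 235 CPM at 36W and 129, 129 and 145 CPM at 2D. Gclm changed by -0.64 in KO and 0.804 in WT (difference -1.44, adjusted p = 0.00566) and Ugt2b35, a glucuronosyltransferase, by -1.03 in KO and 1.41 in WT (difference -2.44, adjusted p = 0.000904). Both differences were called under all 21 alternatives. Abcc3, an efflux pump, and Blvrb, biliverdin reductase, changed by 1.22 in KO and 3.0 in WT (difference -1.78, adjusted p = 0.044) and -0.17 in KO and 1.09 in WT (difference -1.26, adjusted p = 0.0322). Pir was the member whose change was more positive in KO, at 3.32 in KO and 1.46 in WT (difference 1.86, adjusted p = 0.0138). In all, 1 of 46 was called positive and 5 negative in the difference, against 0.612% and 2.43% of all genes.

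Chaperones of the endoplasmic reticulum and genes of the integrated stress response rose: 20 of 24 rose and none fell (median 1.45). Trib3, a pseudokinase induced by ATF4 and CHOP, was at 98.8, 158 and 113 CPM in the 36W KO libraries, against 2.43, 4.001 and 1.61 CPM in the 2D KO libraries (log2 fold change 5.54, SE 0.48, adjusted p = 7.54e-07). Ddit3, which encodes CHOP, was at 40.3, 34.3 and 50.9 CPM in the 36W KO libraries, against 3.89, 6.17 and 7.52 CPM in the 2D KO libraries, and the chaperone BiP gene Hspa5 at 2332, 2439 and 2554 CPM in the 36W KO libraries, against 738, 750.1 and 874 CPM in the 2D KO libraries. All 3 rose without overlap. Atf4 and Xbp1, transcription factors of the response, rose by 1.64 (adjusted p = 1.11e-05) and 1.66 (adjusted p = 4.85e-05). In wild-type liver 22 of the 24 rose, and the rise of Ddit3 was smaller, at 2.83 in KO and 1.05 in WT (difference 1.79, adjusted p = 0.0138).

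The p53 response genes, which mark DNA damage, included 7 lower and 2 higher of 29 tested (median -0.38), against 15.8% and 17.8% of all genes. Cdkn1a, the inhibitor p21, was at 44.98, 56.4 and 102 CPM in the 36W KO libraries, against 327, 466 and 459 CPM in the 2D KO libraries and fell by 2.62 (adjusted p = 0.000179). Ccng1, cyclin G1, fell by 1.11 (adjusted p = 0.00125), Fas, the death receptor, by 1.49 (adjusted p = 6.76e-06) and Ei24 by 1.13 (adjusted p = 0.000135). Mdm2, the p53 ligase, stood at 56.8, 56.7 and 102 CPM in the 36W KO libraries, against 62.9, 111 and 92.95 CPM in the 2D KO libraries, with overlapping groups (adjusted p = 0.455). In wild-type liver 22 of the 29 fell (median -1.32). The count of 7 was 4 when any of 2D KO replicates 2 and 3 and 36W KO replicates 1 and 2 was left out, 11 with the 6 KO libraries alone and 12 with scaling to library size. Of 28 genes of alkylation and strand break repair 8 fell and 3 rose, against 15.8% and 17.8% of all genes. The damage kinase Atr fell by 1.2 (adjusted p = 4.28e-05), and Alkbh2 and Mpg, which repair alkylated bases, rose by 1.41 (adjusted p = 0.000198) and 0.99 (adjusted p = 0.00928). The lower count was 5 without 2D KO replicate 3 or 36W KO replicate 2.

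Of 30 genes associated with liver tumours 7 rose and 9 fell (median -0.12), against 17.8% and 15.8% of all genes. Spp1, osteopontin, was at 995, 678 and 1147 CPM in the 36W KO libraries, against 93.7, 98.4 and 109 CPM in the 2D KO libraries, and the proto-oncogene Mycn at 7.03, 3.53 and 3.38 CPM in the 36W KO libraries, against 0.859, 0.667 and 0.662 CPM in the 2D KO libraries. Both rose without overlap, together with Cdkn2a and Cdkn2b. The Wnt targets Tbx3, Nkd1, Lgr5 and Axin2 fell. Lcn2, lipocalin 2, at 470.4, 541 and 634 CPM at 36W and 172, 91.6 and 96.1 CPM at 2D, was called (adjusted p = 0.0388) but lost the call under 8 alternatives.

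**Figure D4:**
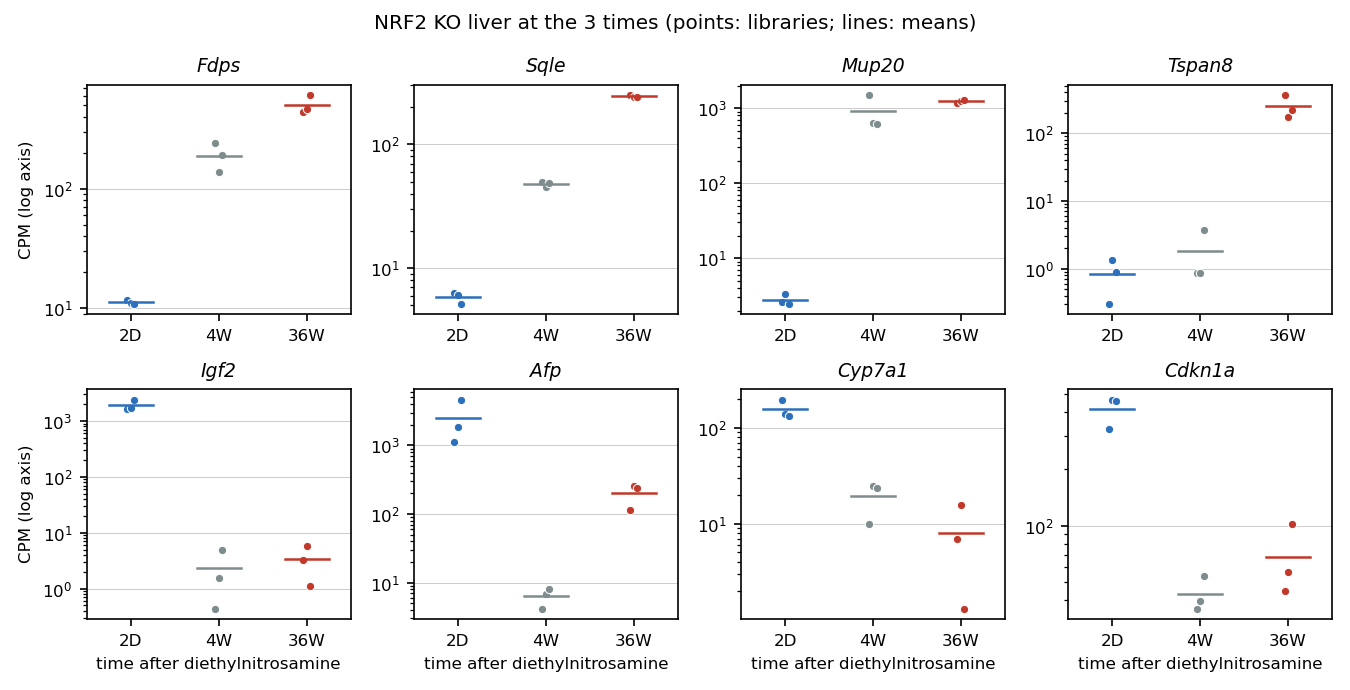
CPM in each NRF2 knockout library at 2D, 4W and 36W after DEN on a log axis (3 libraries per time, each a point) for 8 genes. Fdps and Sqle are highest at 36W, while Igf2 and Afp are highest at 2D, as for Fdps at 11.6, 11 and 10.9 CPM at 2D, 239, 139 and 189.5 CPM at 4W and 438, 467 and 609 CPM at 36W.

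Genes of immune cells rose in part. Of 11 MHC class II genes 8 rose (median 1.68), and of 26 interferon response genes 17 rose and none fell (median 1.02). Cd74, the invariant chain, was at 255, 225 and 502 CPM in the 36W KO libraries, against 75.7, 43.9 and 44.8 CPM in the 2D KO libraries, and 36W KO replicate 3 was the highest library. Isg15, a ubiquitin-like interferon product, was at 28.7, 29.01 and 23.7 CPM in the 36W KO libraries, against 5.36, 4.33 and 4.399 CPM in the 2D KO libraries, and Oas1a, which senses double-stranded RNA, at 21.7, 24.8 and 13.97 CPM in the 36W KO libraries, against 3.59, 1.61 and 1.94 CPM in the 2D KO libraries. These genes did not overlap between the times. Without 36W KO replicate 3 the count of class II genes that rose was 4.

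Of 19 T and NK cell genes 8 rose, against 17.8% of all genes. The summed level of the list was 27.27 to 95.9 CPM in the 36W KO libraries and 16.34 to 24.96 CPM in the 2D KO libraries. Ccl5, a chemokine of effector T cells, was at 4.75, 3.76 and 22.4 CPM in the 36W KO libraries, against 1.21, 1.17 and 0.757 CPM in the 2D KO libraries, and Cd8a, the CD8 co-receptor, at 1.31, 2.49 and 9.58 CPM in the 36W KO libraries, against 1.31, 0.389 and 0.851 CPM in the 2D KO libraries. The high values came from 36W KO replicate 3, and the call of Cd8a was lost under 7 alternatives. The count of 8 was 2 without it, 3 without 2D KO replicate 1 or 2, 1 without 2D KO replicate 3, 5 with scaling to library size and 3 under limma-voom. Of 14 genes of B and plasma cells 4 rose and 1 fell, against 17.8% and 15.8% of all genes. The median was 0.09 and 9 did not pass the test. The genes that rose included Xbp1 and Derl3, which also belong to the endoplasmic reticulum stress response. The B cell marker Ms4a1 was the member that fell, by 1.49 (adjusted p = 0.0235), a call lost when any 1 KO library other than 2D KO replicate 1 was left out, and Cd79a did not pass (-0.73, adjusted p = 0.334). The light chain gene Igkc was at 52.01, 74.2 and 77.99 CPM in the 36W KO libraries, against 6.42, 7.33 and 3.97 CPM in the 2D KO libraries and the J chain gene Igj at 20.8, 30.6 and 34.8 CPM in the 36W KO libraries, against 1.47, 2.06 and 0.615 CPM in the 2D KO libraries.

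Among 24 Kupffer cell and macrophage genes 6 rose and 3 fell, shares not far from the 17.8% and 15.8% of all genes. Gpnmb, a glycoprotein of macrophages, was at 25.6, 18.9 and 8.79 CPM in the 36W KO libraries, against 1.11, 2.06 and 1.99 CPM in the 2D KO libraries, Itgax (CD11c) at 8.47, 7.88 and 11.2 CPM in the 36W KO libraries, against 2.22, 1.94 and 2.46 CPM in the 2D KO libraries and Cx3cr1, a monocyte chemokine receptor, at 6.41, 6.37 and 7.95 CPM in the 36W KO libraries, against 1.26, 0.611 and 1.37 CPM in the 2D KO libraries. The resident Kupffer cell genes Clec4f, Timd4 and Vsig4 fell, by 1.37 (adjusted p = 0.00988), 1.39 (adjusted p = 0.0427) and 1.15 (adjusted p = 0.0308), and these 3 calls were lost without 36W KO replicate 3, with 1 gene of the list falling without 2D KO replicate 1 or 3 or 36W KO replicate 1. Of 13 neutrophil genes 4 fell, against 15.8% of all genes. Ltf, lactoferrin, was at 0.551, 0.753 and 7.95 CPM in the 36W KO libraries, against 39.2, 109 and 88.6 CPM in the 2D KO libraries. Ngp was at 0, 0.2895 and 0.113 CPM in the 36W KO libraries, against 4.95, 1.5 and 3.26 CPM in the 2D KO libraries. The count of 4 was 2 without 2D KO replicate 1, 36W KO replicate 1 or 36W KO replicate 3.

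Of 26 stellate cell and collagen genes 12 fell and none rose (median -1.11), with a summed level of 1024 to 1392 CPM in the 36W KO libraries and 2180 to 3125 CPM in the 2D KO libraries. Mmp2, a gelatinase, was at 12.4, 4.52 and 6.93 CPM in the 36W KO libraries, against 51.2, 61.01 and 72.2 CPM in the 2D KO libraries, and the proteoglycan Dcn (decorin) at 104, 105 and 72.7 CPM in the 36W KO libraries, against 285, 266 and 344 CPM in the 2D KO libraries. Col1a1, the main fibrillar collagen, was at 92.4, 65.3 and 64.6 CPM in the 36W KO libraries, against 102, 103 and 164 CPM in the 2D KO libraries and did not pass the test (adjusted p = 0.588). Under 2 of the 17 alternatives that gave a value it was called lower. Lrat, which stores retinol in stellate cells, fell by 1.95 (adjusted p = 0.000459). With the 6 KO libraries fitted alone 21 of the 26 fell. Of 20 sinusoidal endothelial genes 4 rose and 4 fell, shares near those of all genes (17.8% and 15.8%), and the lower count was 2 without any 1 of replicates 1 and 3 of either time. Of 14 cholangiocyte and progenitor genes 2 rose and 2 fell, again near the shares of all genes. The lower count was 1 without 2D KO replicate 2 or 3 or 36W KO replicate 1. Sox9, a biliary and progenitor factor, was at 36.2, 29.8 and 23.6 CPM in the 36W KO libraries, against 8.24, 6.45 and 7.57 CPM in the 2D KO libraries, and Krt19, a biliary keratin, at 1.79, 2.72 and 0.113 CPM at 36W and 1.11, 2.89 and 5.298 CPM at 2D (adjusted p = 0.536). The part that shifts in these cell types have in the other results was not tested.

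Markers of tissues outside the liver were mostly at or near 0. Ckm, Pvalb and Mb of muscle, Plin1, Lep, Retn and Ucp1 of fat, and Prss1, Cpa1, Pnlip, Amy2a5 and Try4 of the exocrine pancreas had 0 counts in all 6 libraries, which are 3 of 10 muscle, 4 of 9 adipocyte and 5 of 11 pancreas markers. Adipoq had 1 count in all 6 libraries together, Acta1 6, Myh1 6, and Myh4, Tnnt3, Cpb1, Ctrb1 and Try5 1 each, while Prss2 had 13, all at 36W. The summed muscle markers were at 1.31 to 1.47 CPM in the 36W KO libraries and 0.505 to 1.39 CPM in the 2D KO libraries, the adipocyte markers at 16.5 to 48.4 CPM at 36W and 19.3 to 24.5 CPM at 2D, and the pancreas markers at 52.3 to 69.3 CPM at 36W and 3.84 to 5.16 CPM at 2D. Fabp4 and Cidec, which the liver can also express, made up most of the adipocyte sum, and Cela1 most of the pancreas sum. Of the adipocyte list Cidea, a lipid droplet protein, was called, at 1.45, 2.84 and 1.86 CPM in the 36W KO libraries, against 0.101, 0 and 0.0473 CPM in the 2D KO libraries, and of the pancreas list the elastase gene Cela1, at 68.7, 51.8 and 55.1 CPM in the 36W KO libraries, against 3.08, 3.78 and 4.305 CPM in the 2D KO libraries. Of 10 erythroid genes tested 1 fell, against 15.8% of all genes. This was Tfrc, the transferrin receptor, which dividing cells also express. Tfrc was at 24.04, 30.5 and 17.1 CPM in the 36W KO libraries, against 187, 165 and 145 CPM in the 2D KO libraries.

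Clock genes went both ways. Of 18 clock genes 5 rose and 6 fell, against 17.8% and 15.8% of all genes. Nr1d1, the repressor REV-ERB alpha, was at 131, 121 and 101.3 CPM in the 36W KO libraries, against 6.11, 10.4 and 6.86 CPM in the 2D KO libraries, and Arntl (BMAL1), its target, at 15.7, 3.18 and 2.82 CPM in the 36W KO libraries, against 32.3, 28.7 and 28.4 CPM in the 2D KO libraries. They moved in opposite directions, and the time of day of sampling is not in the labels. Of 18 metallothionein and iron genes 5 rose and 5 fell, against 17.8% and 15.8% of all genes. Without 2D KO replicate 3 or 36W KO replicate 3, 2 rose, and without 2D KO replicate 2, 3 rose. Without 36W KO replicate 2 or 3, 3 fell. Id1, a BMP target, was at 65.4, 70.9 and 104 CPM in the 36W KO libraries, against 9.904, 14.3 and 16.4 CPM in the 2D KO libraries and changed by 2.56 in KO and 0.14 in WT (difference 2.42, adjusted p = 0.0164). Hamp, the iron hormone hepcidin, was at 112, 88.3 and 326 CPM in the 36W KO libraries, against 49.1, 11 and 22.2 CPM in the 2D KO libraries, with its call lost without 2D KO replicate 2 or 3 or 36W KO replicate 3. Of 24 acute phase genes 6 rose and 2 fell, against 17.8% and 15.8% of all genes. Il1rn, the interleukin 1 receptor antagonist, rose by 5.16 (adjusted p = 5.2e-06), Orm1, an orosomucoid, by 4.29 (adjusted p = 0.000213) and Cp, ceruloplasmin, by 1.41 (adjusted p = 9.4e-06), and Lbp, which binds endotoxin, fell by 1.76 (adjusted p = 0.000348). The count of 6 was 3 without 2D KO replicate 2 or 3 or 36W KO replicate 3, and 1 fell without 2D KO replicate 1.

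Ribosomal protein genes showed small rises, 17 of 30 with none lower (median 0.49), and the count was 5 without 36W KO replicate 3, 8 without 2D KO replicate 3, 28 without 36W KO replicate 1 and 6 with scaling to library size. Nuclear genes of oxidative phosphorylation fell, 20 of 28 with 1 higher (median -0.57). Atp5b, the beta subunit of ATP synthase, was at 649, 787 and 725 CPM in the 36W KO libraries, against 1652, 1522 and 1399 CPM in the 2D KO libraries, and Cyc1, cytochrome c1, at 93.8, 115 and 104 CPM in the 36W KO libraries, against 229, 237 and 200.2 CPM in the 2D KO libraries. Both fell without overlap. Transcripts of the mitochondrial genome took 2.12% to 3.06% of the counts at 36W and 5.03% to 5.14% at 2D.

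**Figure D5:**
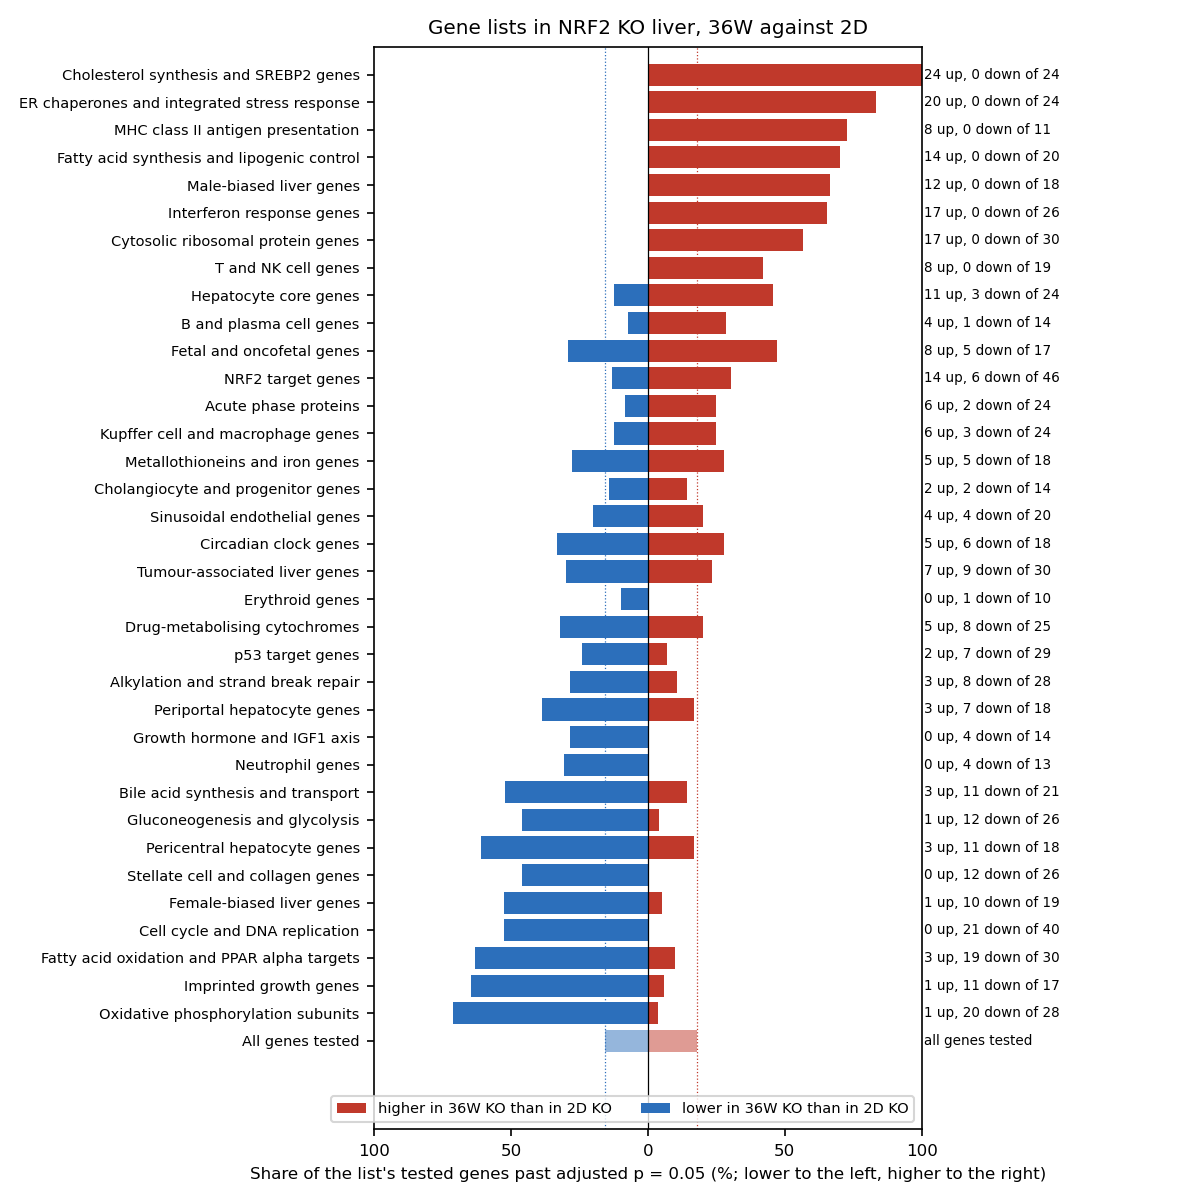
Percent of the tested members of each gene list that were higher or lower at 36W than at 2D in NRF2 knockout liver, with all genes tested for comparison (17.8% higher, 15.8% lower); lists with fewer than 5 tested members are left out. Cholesterol genes are all higher, and imprinted genes and oxidative phosphorylation subunits are mostly lower.

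The difference between genotypes was largest, among called genes above the abundance limit, for the following. Egln3, an oxygen-sensing prolyl hydroxylase, was at 4.27, 6.08 and 3.66 CPM in the 36W KO libraries, against 42.9, 53.3 and 66.1 CPM in the 2D KO libraries. In wild-type liver it was at 14.9, 16.9 and 33.2 CPM at 36W and 23.4, 15.4 and 40.6 CPM at 2D, with overlapping groups, and it changed by -3.53 in KO and -0.29 in WT (difference -3.24, adjusted p = 0.00553). The carboxylesterases Ces1b and Ces1d changed by -4.03 in KO and -0.05 in WT (difference -3.98, adjusted p = 0.0156) and -2.92 in KO and 0.89 in WT (difference -3.81, adjusted p = 0.0187). The fasting hormone Fgf21 and the epoxygenase Cyp2j5 rose in WT and did not pass the test in KO, with differences of -3.56 (adjusted p = 0.028) and -3.5 (adjusted p = 0.02). In the positive direction were Col22a1, a minor collagen (6.92), Gprc5a, an orphan receptor (4.76), Bex1 (4.56), the metalloprotease meprin gene Mep1b (4.42) and the mitochondrial creatine kinase Ckmt1 (4.22). Mep1b was at 35.4, 17.8 and 28.3 CPM in the 36W KO libraries, against 0.505, 0.222 and 0.284 CPM in the 2D KO libraries. Of these 10 genes Egln3 was called under all 21 alternatives. Of the 34 genes named here whose difference was called, 7 were called when the 12 libraries were fitted alone: Egln3, Ugt2b35, Hadh, Gclm, Peg3, Ppara and Id1. The wild-type values behind these differences spread widely: 36W WT replicate 1 had 3.56 CPM of Tspan8 and 26.4 CPM of Gpc3, lower than the other 36W libraries, and 2D WT replicate 3 stood apart for collagen genes. Neither library entered the KO values, although both share the estimate of spread. Col22a1 had no count in the 36W WT libraries, so that its fitted difference depends on the prior count.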

How the data were processed

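The authors deposited 1 table of raw gene counts for the 18 libraries, with gene coordinates. Per the submitters' processing notes, STAR 2.5, HTSeq, DESeq2 and the mm10 build were used, with no roles given. Per the labels' protocols, total RNA from liver was made into TruSeq libraries. Groups and replicates came from the sample titles.

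Counts were fitted as deposited with edgeR 4.0.16 (TMM scaling, expression filter, quasi-likelihood test, Benjamini-Hochberg adjustment over all 14877 genes tested) in R 4.3.3, using 1 coefficient for each of the 6 groups and all 18 libraries, which leaves 12 residual degrees of freedom. Log2 fold changes are 36W minus 2D, and the difference is the KO change minus the WT change. An exact permutation test of 3 against 3 libraries cannot go below 0.1 and was not used. CPM values in the text are counts per 1e+06 of the library's total after TMM scaling. Counting intervals are exact (95%) and, like the limit of 3 counts, cover counting error only. The fit was tested on simulated data. Python 3.11.15 drew the figures.

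Named genes were Nfe2l2 and Nqo1, the 15 largest called changes in each direction (mean log2 CPM from 1 upwards, 36W and 2D libraries not overlapping, no predicted or pseudogene name), up to 4 called members of each list with the smallest p-values, and the 5 largest called differences in each direction by the same limits without that on overlap. Some genes that this rule names are not reported here. Other genes were picked for naming with their values in view. The comparison and the gene lists were chosen with earlier results of these data known. Among the gene names, 27 had been turned into dates in the deposited table. Each was replaced by the reference symbol of its gene identifier, or by the identifier where none matched. Alternatives were limma-voom (limma 3.58.1), DESeq2 1.42.0, DESeq2 size factors in edgeR, library size scaling, a filter of 1 CPM in 3 libraries, no expression filter, a 2-fold minimum, a replicate block, the libraries of the contrast alone, and each library left out. Replicates differed by more than sampling noise, so none was merged; the labels do not say that they are separate animals, so p-values measure the spread between these libraries, which may be technical. RefSeq promoter windows were matched by gene symbol.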

Additional observations from a re-analysis of the deposited data

Results flagged for a closer look

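For 34 of the named genes the change between 36W and 2D differed between KO and WT liver by the test of the difference itself (edgeR, adjusted over all genes tested). Values of 32 of them follow and are the KO change minus the WT change on the log2 scale, from 3 libraries per group. Among genes of lipid oxidation and its control the differences were -3.56 for Fgf21, -1.75 for Ppara, -1.46 for Hadh, -1.21 for Hadhb, -1.17 for Cpt2, -0.997 for Hadha, -0.966 for Acaa2, -0.95 for Acadvl and -0.843 for Acadm. Among NRF2 and its target genes they were -2.44 for Ugt2b35, -1.78 for Abcc3, -1.45 for Aldh3a2, -1.44 for Gclm, -1.26 for Blvrb, -1.16 for Nfe2l2 and, with the opposite sign, 1.86 for Pir. Other negative differences were -3.98 (Ces1b), -3.81 (Ces1d), -3.5 (Cyp2j5), -3.24 (Egln3), -2.36 (Slc13a3), -1.68 (Akr1d1), -1.13 (Gulo) and -0.804 (Pcx). Positive differences were 1.79 for the stress factor gene Ddit3, 2.42 for the BMP target Id1, 2.96 for the imprinted gene Peg3, 4.22 for Ckmt1, 4.42 for Mep1b, 4.56 for Bex1, 4.76 for Gprc5a and 6.92 for Col22a1, which had no count in the 36W WT libraries, so that its size depends on the prior count. Egln3, Ugt2b35, Hadh, Gclm and Peg3 stayed called under all 21 alternatives.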

How the results depend on the processing

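Of 230 named genes, 214 were called in the knockout comparison, and 181 of these kept the call under every alternative that gave a value. Of the 181, 179 kept it under all 18. None of the 230 changed direction where it was called in the main fit or in the alternative. Genes not called could change sign, as Nqo1 did, from 0.797 in the main fit to -0.28 at the lowest. Genes of the difference between genotypes were less stable: of 34 named genes called there, 5 stayed called under all 21 alternatives and 7 were called with the 12 libraries of the contrast alone. With a 2-fold minimum the counts were 1291 higher and 1114 lower in KO, 1362 higher and 1561 lower in WT, and 169 negative in the difference. With scaling to library size they were 1736 higher in KO, 1451 higher and 5612 lower in WT, and 72 negative and 165 positive in the difference. DESeq2 gave 759 negative and 366 positive differences. The libraries of the contrast alone gave 1645 higher and 1341 lower in WT, and 22 negative and 7 positive differences. Leaving out 1 KO library gave 1985 to 2474 higher and 1682 to 2080 lower genes in KO, and leaving out 2D WT replicate 3 or 36W WT replicate 1, added after seeing the data, 2874 or 2778 higher and 2608 or 2445 lower. For the difference, leaving out 1 library gave 87 (without 2D KO replicate 2) to 549 (without 36W KO replicate 1) negative differences and 15 (without 2D WT replicate 2 or 36W KO replicate 3) to 216 (without 2D WT replicate 3) positive ones. Without both 2D WT replicate 3 and 36W WT replicate 1, chosen after seeing the data, 187 differences were positive. The cause of these shifts was not tested.

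The same replicate numbers did not pair the libraries: deviations of same-numbered 36W KO and 2D KO libraries correlated at -0.0132, -0.0257 and 0.0242. The replicate block gave 2662 higher and 2372 lower genes in KO, and 432 negative and 114 positive differences. Within the 6 KO libraries alone, an alternative added after seeing the data, the block gave 2570 higher and 2531 lower. Depth limits genes near 3 counts, which is 0.142 to 0.207 CPM in the 6 libraries.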
